A study of Homo sapiens with 6 samples.

Results

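The mitochondrial genome encodes 13 messenger RNAs, and the 6 described here are those whose proteins belong to complexes III, IV and V of oxidative phosphorylation. They are CYTB for complex III, COX1, COX2 and COX3 for complex IV, and ATP6 and ATP8 for complex V. They were chosen by name and are 6 of the 42656 rows of the count table, which names mitochondrial genes without the MT- prefix. The rows COX1 and COX2 are the cytochrome c oxidase subunits of the mitochondrial genome. The cyclooxygenase genes PTGS1 and PTGS2, which share those names as older symbols, are separate genes.

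RNA was sequenced from TOV21G, an established line of ovarian clear cell carcinoma. All cells had been transduced with a lentivirus that carried a short hairpin RNA, at a multiplicity of infection of 50, and were harvested on day 3. The control arm (shCtrl, genotype WT) carried the scramble hairpin TRC2-Scramble_ASN0003, and the knockdown arm (shMEX3A, genotype MEX3A knockdown) carried the hairpin TRCN230492 against MEX3A, an RNA-binding protein, with 3 libraries in each arm. A single hairpin per arm means that an effect of this hairpin cannot be told apart from one of MEX3A depletion. The comparison asks how these mRNAs differ when MEX3A is depleted, and the series title ties MEX3A to mitochondrial fitness.

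Human mitochondrial DNA is read from both strands as long transcripts, which are cut mostly at the tRNAs that lie between the coding genes. The mRNAs then receive short poly(A) tails and are translated on mitochondrial ribosomes. Their products form the catalytic or proton-conducting cores of the complexes. Cytochrome b carries electrons through complex III, the COX proteins hold the oxygen-reducing core of complex IV, and ATP6 and ATP8 belong to the membrane part of ATP synthase. The other subunits of each complex are encoded in the nucleus and imported.

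The ends of the reading frames and one overlap matter for how reads are counted and for how the mRNAs are finished, so those sequences are given first. They come from GENCODE 29 (GRCh38, mitochondrial chromosome, plus strand), with starts and ends that match the RefSeq table of GRCh38.p14 for all 6 genes. All 6 genes are single exons and their annotated span is almost wholly coding. Each line gives the last 30 bases of a gene, with the stop codon, or the annotated part of it, in capitals.
CYTB: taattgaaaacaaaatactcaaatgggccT
COX1: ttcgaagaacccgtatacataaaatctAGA
COX2: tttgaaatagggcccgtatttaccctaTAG
COX3: tgtatgtctccatctattgatgagggtctT
ATP6: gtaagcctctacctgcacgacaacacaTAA
ATP8: tcgcttcattcattgcccccacaatccTAG

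CYTB (1141 bases, 14747 to 15887) and COX3 (784 bases, 9207 to 9990) end 1 base past their last full codon, and the poly(A) tail completes their stop codons. The frames of COX1 (1542 bases, 5904 to 7445), COX2 (684 bases, 7586 to 8269), ATP6 (681 bases, 8527 to 9207) and ATP8 (207 bases, 8366 to 8572) end on a full codon. The GC content of the 6 genes ran from 39.6% for ATP8 to 46.6% for COX3. ATP8 and ATP6 are read in different frames of a single mRNA and share 46 bases (8527 to 8572), with the start codon of ATP6 and the stop codon of ATP8 in capitals.
ATP8 and ATP6: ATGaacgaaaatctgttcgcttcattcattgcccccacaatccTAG

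A read in that stretch belongs to both genes, and the last base of ATP6 is also the first of COX3. That leaves ATP8 with 161 bases of its own and ATP6 with 634. How overlapping reads were counted is not given in the sources used here, so levels of ATP8 and ATP6 are less certain than those of the other members, and ATP8 has the fewest counts.

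Library totals ran from 34662635 to 48228216 counts. Single members had from 3614 counts (ATP8) to 409507 counts (COX1) in a library, so counting error was small beside the spread between libraries. MEX3A itself stood at 69.0 ± 1.54 CPM (counts relative to the TMM-scaled library total) in shCtrl and 20.9 ± 1.31 in shMEX3A (SD, n = 3 each), which is 3.31-fold lower. Of 15679 tested genes 10925 were called (69.7%), so a call alone does not set a gene apart. Of the 6 clear cell carcinoma markers NAPSA was nearly absent, at 0.415 CPM in shCtrl and 0.729 CPM in shMEX3A. The 6 epithelial markers summed to 367 to 374 CPM in shCtrl and 553 to 567 CPM in shMEX3A. Nearly all of that was KRT8 (194 and 284 CPM) and KRT18 (160 and 262 CPM), while EPCAM (5.71 and 5.42), KRT7 (2.64 and 5.05), KRT19 (2.90 and 2.62) and CDH1 (4.23 and 1.59) were low. Of 15 markers of other cell types, 4 passed the low-count filter. Their summed level was 6.98 to 8.15 CPM in shCtrl and 8.47 to 8.85 CPM in shMEX3A for 5 leukocyte markers, with CD3E at 0. For 4 fibroblast markers it was 4.92 to 5.25 and 8.43 to 10.3 CPM, nearly all of it DCN. For 3 endothelial markers it stayed under 1 CPM, as it did for 3 hepatocyte markers, among which TTR was at 0. The part of these cells in the results was not tested.

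All 6 mRNAs rose in shMEX3A, and together they went from 0.939% ± 0.0276 to 1.89% ± 0.0721 of all counts (SD, n = 3 each), 2.01 times the share. The rises ran from 1.87-fold for COX3 to 2.37-fold for COX2, and 5 of the 6 were called at least 2-fold higher. Among all tested genes 34.0% were called higher and 6.95% were called at least 2-fold higher. The median log2 fold change was 1.11 over the 6 members and -0.01 over all tested genes. In bulk RNA, more RNA per cell and more cells of a kind cannot be told apart. Whether the mRNA kit captured the mitochondrial mRNAs alike in both arms was not tested. Whether the 3 libraries of each arm were grown as independent cultures is not stated, and the p-values therefore rest on a spread among libraries that may be technical.

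**Figure D1:**
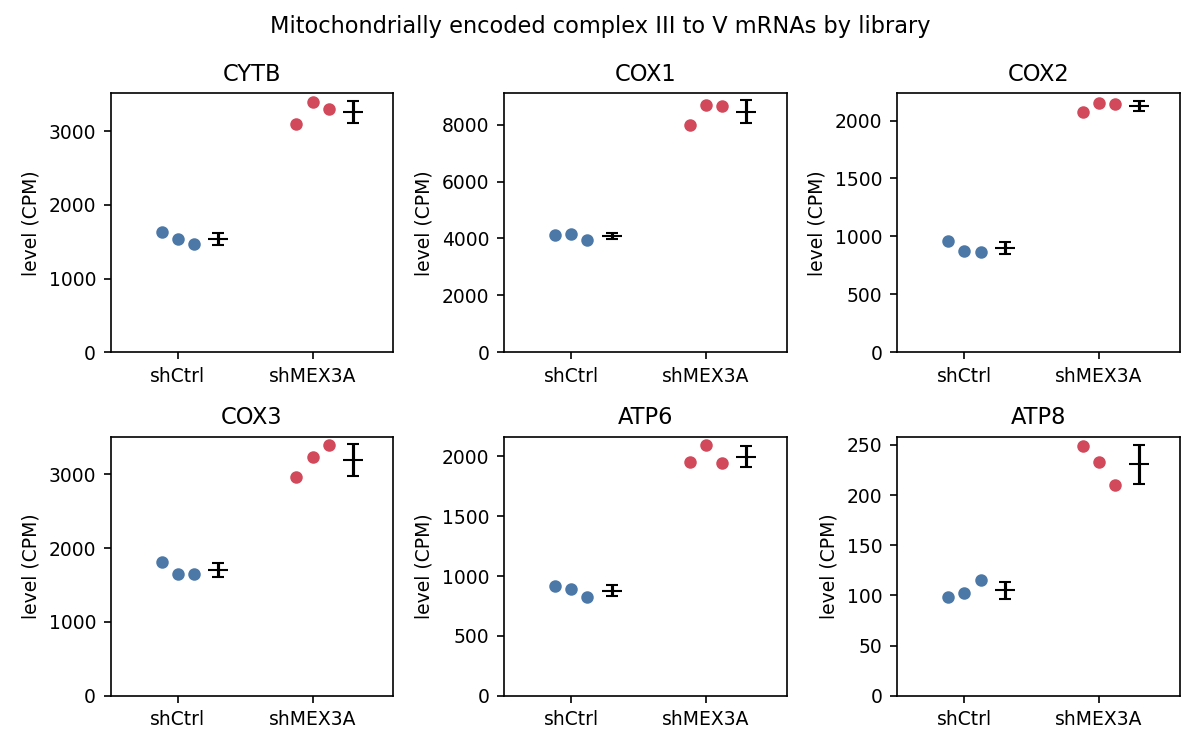
Level of each mRNA in CPM (vertical axes, from 0) in the 3 shCtrl and 3 shMEX3A libraries (points), with mean ± SD beside them. In all 6 panels the shMEX3A libraries lie above the shCtrl libraries, from 1.87-fold (COX3) to 2.37-fold (COX2) on the fitted scale.

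CYTB encodes cytochrome b, the only subunit of complex III made inside mitochondria. In shCtrl replicates 1 to 3 it stood at 1629, 1530 and 1467 CPM, and in shMEX3A replicates 1 to 3 at 3096, 3395 and 3296 CPM. The lowest shMEX3A library was well above the highest shCtrl library. The fold change was 2.12 (log2 1.08, SE 0.038, adjusted p = 2.26e-16, edgeR quasi-likelihood test).

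COX1, the subunit of complex IV that holds the site of oxygen reduction, was the most abundant member. Its levels were 4132, 4149 and 3955 CPM in the shCtrl libraries and 7978, 8695 and 8661 CPM in the shMEX3A libraries, in replicate order. The arms did not overlap, and the rise was 2.07-fold (log2 1.05, SE 0.034, adjusted p = 3.53e-25).

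COX2 carries the copper centre that takes electrons from cytochrome c. It was at 956, 874 and 862 CPM in shCtrl and at 2073, 2154 and 2144 CPM in shMEX3A. The 3 shMEX3A values lay close together and far above the control values, and this was the largest rise among the members (2.37-fold, log2 1.24, SE 0.034, adjusted p = 1.13e-24).

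COX3, the third core subunit, binds no metal centre. The shCtrl libraries gave 1818, 1650 and 1656 CPM and the shMEX3A libraries 2966, 3235 and 3396 CPM. Although the arms were fully apart, this was the smallest rise among the members (1.87-fold, log2 0.91, SE 0.056, adjusted p = 6.13e-07).

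ATP6 forms the proton path next to the rotating ring of ATP synthase. Its shCtrl levels of 915, 888 and 829 CPM compared with 1950, 2099 and 1946 CPM in shMEX3A, again with no overlap (2.28-fold, log2 1.19, SE 0.036, adjusted p = 9.21e-20).

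ATP8, a short membrane subunit beside ATP6, had the lowest counts. It was at 98.3, 102 and 115 CPM in shCtrl and at 249, 233 and 210 CPM in shMEX3A. The spread within an arm was the widest of the members, with a coefficient of variation of 8.29% and 8.48%, yet the arms stayed apart (2.20-fold, log2 1.14, SE 0.095, adjusted p = 0.000284). In all 6 members the libraries of the arms did not overlap, with shMEX3A higher, as was the case for 35.4% of all tested genes, or 72.3% in either direction.

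Scaled by gene length, the members kept much of their order. In CPM per kilobase COX1 led in shCtrl (2645 ± 69.7), followed by COX3 (2179 ± 122). CYTB (1351 ± 71.4), COX2 (1312 ± 74.3) and ATP6 (1288 ± 64.7) came next and did not differ beyond the spread of their libraries, and ATP8 was lowest (507 ± 42.0). In shMEX3A COX1 (5476 ± 262) and COX3 (4081 ± 277) led again, followed by COX2 (3105 ± 64.1), ATP6 (2934 ± 128) and CYTB (2859 ± 134), with ATP8 last (1114 ± 94.5). There, COX2 overlapped ATP6 and ATP6 overlapped CYTB, while all 3 COX2 libraries (3031 to 3149) were above all 3 CYTB libraries (2713 to 2976). Dividing the same counts by only the bases that no other gene shares gave 1384 and 3152 CPM per kilobase for ATP6. For ATP8 it gave 652 and 1433 (shCtrl and shMEX3A). That shorter length is right only if reads in the shared bases were left out of the counts, which is not known here. On that length ATP6 stood just above CYTB and COX2 and ATP8 stayed last, so the place of ATP6 depends on the length used. Since ATP8 and ATP6 lie on a single mRNA, the gap between them is not a difference between mRNAs, and its source was not tested. The 7 complex I mRNAs ranged in shCtrl from 58.8 (ND6) to 1658 (ND4) CPM per kilobase.

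The pool of 13 mitochondrial mRNAs went from 1.6% ± 0.0580 to 3.21% ± 0.129 of all counts (SD, n = 3 each), and the part of it held by the 6 members hardly moved. They made up 58.8% ± 0.463 of the pool in shCtrl and 58.7% ± 0.451 in shMEX3A (SD, n = 3 each). Within that part the mean shares of 3 mRNAs differed most between the arms. COX2 went from 5.73% ± 0.151 to 6.48% ± 0.160 of the pool and ATP6 from 5.60% ± 0.0600 to 6.09% ± 0.210, while COX3 went from 10.9% ± 0.351 to 9.75% ± 0.410. For these 3 mRNAs the libraries of the arms did not overlap, and an exact two-sided permutation test gave p = 0.1, the smallest that 3 against 3 libraries allow. No share of non-overlapping genes was taken on the scale of the pool. On the CPM scale 72.3% of all tested genes did not overlap in either direction, so non-overlap alone does not set an mRNA apart. COX1 (26.1% ± 0.617 and 25.7% ± 0.284), CYTB (9.84% ± 0.130 and 9.95% ± 0.0346) and ATP8 (0.673% ± 0.0848 and 0.705% ± 0.0848) overlapped between the arms (exact p = 0.4, 0.4 and 0.6).

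**Figure D2:**
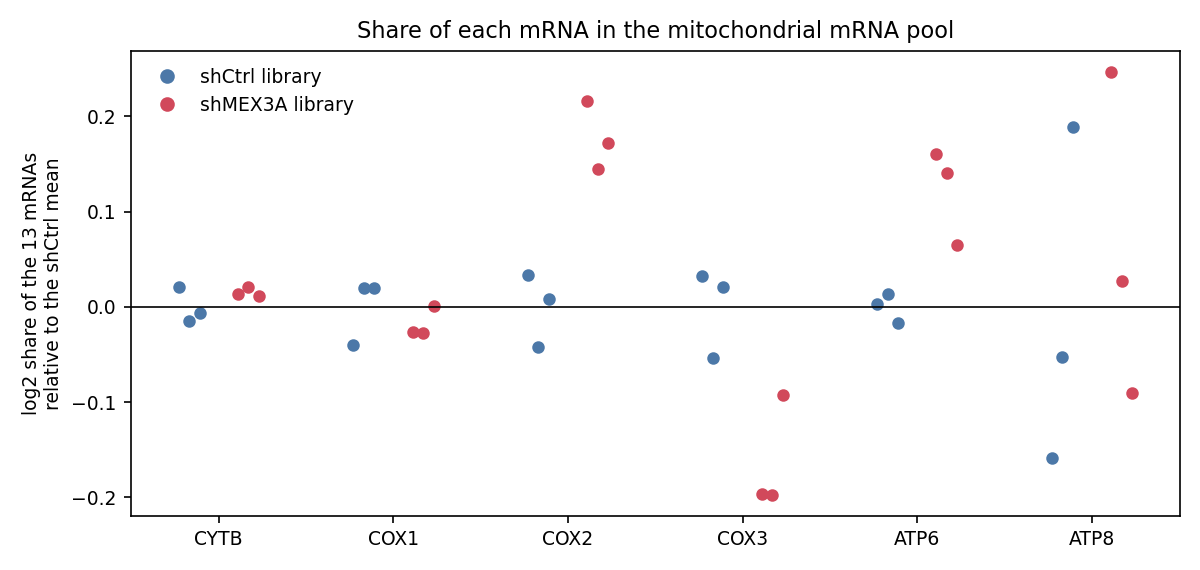
Log2 of each mRNA's share of the 13 mitochondrial mRNAs, relative to its mean share in shCtrl (vertical axis), for every library (points). The shMEX3A libraries lie above the shCtrl libraries for COX2 and ATP6, below them for COX3, and overlap them for CYTB, COX1 and ATP8.

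When the test was run with the counts of the pool as the library size, a fit over all 15679 genes, 3 members were called against the pool. COX2 was higher by 0.18 on the log2 scale (SE 0.055, adjusted p = 0.00135, edgeR quasi-likelihood test), ATP6 was higher by 0.12 (SE 0.055, adjusted p = 0.0283) and COX3 was at -0.16 (SE 0.054, adjusted p = 0.00314). CYTB (0.02, SE 0.054, adjusted p = 0.791), COX1 (-0.02, SE 0.052, adjusted p = 0.752) and ATP8 (0.07, SE 0.062, adjusted p = 0.283) did not pass. The pool holds the member tested, and COX1 was 26.1% of it in shCtrl, so differences of abundant members are understated. In this fit 89.6% of all tested genes were called, 86.8% lower and 2.76% higher, since the pool itself rose. With that many genes called, the adjustment over all genes leaves p-values nearly as they were, so these calls are only weakly adjusted. The call of ATP6 was lost with the replicate number as a block (adjusted p = 0.0861), with the complex I mRNAs as the pool (0.0643), and without shCtrl replicate 2 (0.0652), shCtrl replicate 3 (0.0665), shMEX3A replicate 1 (0.0730) or shMEX3A replicate 2 (0.0845). ATP8 stood at -0.01 without shCtrl replicate 1, at -0.03 without shMEX3A replicate 1 and at 0.17 (adjusted p = 0.0122) without shCtrl replicate 3, so its place in the pool rests on single libraries.

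Of the 15 pairs of members, 8 had ratios that did not overlap between the arms. All pairs are built from the same 6 mRNAs, so the 8 are not separate results. No share over pairs of other genes was taken, and among single tested genes 72.3% did not overlap in either direction. The largest log2 difference was between COX2 and COX3. There were 0.526, 0.530 and 0.521 COX2 counts for each COX3 count in the shCtrl libraries and 0.699, 0.666 and 0.631 in the shMEX3A libraries, a log2 difference of 0.34. The exact permutation p was 0.1, the smallest possible, or 0.188 when adjusted over the 15 pairs. This ratio does not depend on library scaling. The 2 members read from a single mRNA kept a similar ratio, with 9.31, 8.71 and 7.22 ATP6 counts for each ATP8 count in shCtrl and 7.84, 9.0 and 9.27 in shMEX3A (log2 difference 0.05, exact p = 0.7). Here the libraries overlapped, and shCtrl replicate 3 and shMEX3A replicate 1 were the lowest.

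The other mitochondrial RNAs place the members in context. The complex I mRNAs, which encode the membrane arm of NADH dehydrogenase, held 0.658% ± 0.0307 of counts in shCtrl and 1.33% ± 0.0597 in shMEX3A, 2.02 times as much. Of the 7, 6 were called higher, beside 34.0% of all tested genes. They ran from ND2 (log2 fold change 0.67, SE 0.032) and ND1 (0.79, SE 0.078) through ND3 (0.84, SE 0.119), ND5 (1.18, SE 0.041) and ND4 (1.18, SE 0.058) to ND4L (1.27, SE 0.158). ND6, the mRNA of the opposite strand, had 0.87 (SE 0.318, adjusted p = 0.0699), with 18.1, 37.2 and 37.3 CPM in shCtrl and 61.3, 57.2 and 48.7 CPM in shMEX3A. Without shCtrl replicate 1 it was called (0.58, adjusted p = 0.000411), and DESeq2 called it with all libraries (0.86, adjusted p = 0.0195). The strand setting of the counting is not given in the sources used here, so reads of ND6 cannot be told apart from reads of the transcript opposite it. The counts of the ribosomal RNAs rose less. Libraries were made with an mRNA kit, and how it captured mitochondrial rRNAs beside mRNAs was not tested, so these counts may not follow the rRNA levels. RNR2, the large one, had a log2 fold change of 0.45 (SE 0.033, adjusted p = 4.70e-15) and RNR1, the small one, 0.17 (SE 0.043, adjusted p = 0.00290). Against the mRNA pool both were called lower (adjusted p = 1.35e-31 and 1.62e-57), as were 86.8% of all tested genes. A correction for GC content and transcript length put RNR2 at 0.73 and RNR1 at 0.40. The 22 tRNA rows held 170 to 302 counts per library in all, too few to describe.

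In map order along the shared coding strand, the 4 genes nearest the start had the 4 smallest changes. RNR1, RNR2, ND1 and ND2 come before COX1 and had log2 fold changes of 0.17, 0.45, 0.79 and 0.67. From COX1 onward the values lay between 0.84 (ND3) and 1.27 (ND4L), and all 6 members are in that stretch. COX3 and its downstream neighbour ND3 were the lowest there, at 0.91 and 0.84, beside 1.19 for ATP6 just upstream of COX3. No test was made of this order, and the rRNA counts carry the limit of the mRNA kit given above.

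**Figure D3:**
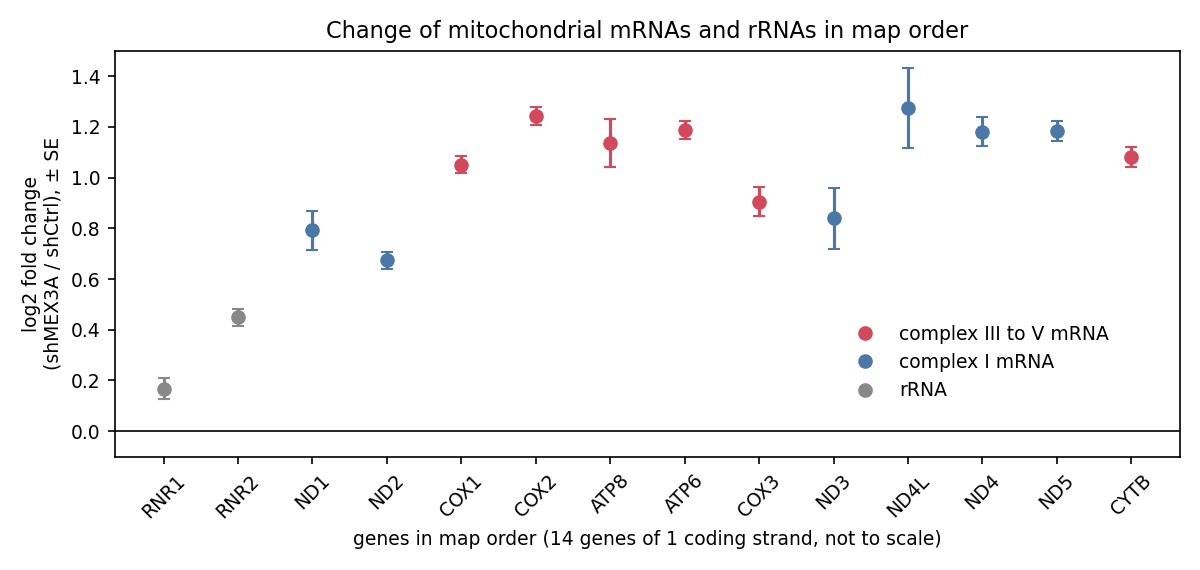
Log2 fold change (shMEX3A over shCtrl, ± SE) of the 2 rRNAs and 12 mRNAs of one strand of the mitochondrial genome, in map order along the horizontal axis. The rRNAs, ND1 and ND2 lie below 0.8 and the members, in red, between 0.91 and 1.24.

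Outside the mitochondrial genome, the 5 tested genes closest to the mean profile of the members over the 6 libraries were TMEM250, MTCL1, PALLD, KIAA0930 and PPME1. The root mean square difference from that profile, in centred log2 CPM, was 0.0238 to 0.0338 for them. For the members themselves it ran from 0.0319 (CYTB) to 0.119 (ATP8). The 5 genes were picked for the smallest differences among all tested genes outside the mitochondrial genome, of which the members are no part. Small values follow from that choice and cannot be set against those of the members. Of all tested genes 1090 were called at least 2-fold higher. TMEM250, the closest, went from 68.8 ± 2.22 to 146 ± 2.12 CPM (1.08 on the log2 scale, SE 0.035).

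In the main fit few of the nuclear-encoded subunits of these complexes were called higher, beside 34.0% of all tested genes. This changed with offsets for GC content and transcript length, where 6 of 12 complex IV subunits rose and 2 fell, as given below. In complex III, 6 of 9 nuclear subunits fell, 1 rose and 2 did not pass, with a median log2 fold change of -0.14, where 35.6% of all tested genes were called lower. UQCRB, next to cytochrome b, fell from 168 ± 17.2 to 122 ± 5.66 CPM (-0.46, SE 0.086), the Rieske iron-sulfur protein UQCRFS1 changed by -0.32 (SE 0.039) and the small subunit UQCR10 by -0.26 (SE 0.076). The core subunit UQCRC1 rose by 0.14 (SE 0.029) on the log2 scale. UQCR10 was no longer called without shMEX3A replicate 1 (adjusted p = 0.0592), shMEX3A replicate 2 (0.0710) or shMEX3A replicate 3 (0.0630), and with GC and length offsets (-0.06, adjusted p = 0.420).

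In complex IV, 12 of 18 nuclear genes could be tested, of which 7 fell, 1 rose and 4 did not pass (median -0.12). Over all tested genes the shares were 35.6% lower and 34.0% higher. The number that fell was 4 with DESeq2, 4 without shMEX3A replicate 2 and 2 with GC and length offsets. COX7C (-0.25, SE 0.040), COX8A (-0.23, SE 0.036) and COX5A (-0.18, SE 0.056) had the largest falls, all far smaller than the rises of COX1, COX2 and COX3. COX5A lost its call without shMEX3A replicate 1 (adjusted p = 0.0551) or shMEX3A replicate 2 (0.0587). COX4I1, which starts the assembly of the enzyme together with COX5A, had 0.01 (SE 0.034, adjusted p = 0.815). The gene that rose was NDUFA4L2, a paralogue of NDUFA4 known from hypoxia, at only 0.325 ± 0.0462 and 0.850 ± 0.244 CPM. NDUFA4 itself had -0.11 (SE 0.061, adjusted p = 0.130), and was called lower when shCtrl replicate 2 (adjusted p = 0.00442) or shMEX3A replicate 1 (0.0111) was left out.

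The tissue-specific forms of complex IV subunits were nearly silent. COX6A2, COX7A1, COX7B2 and COX8C had 0 counts in all 6 libraries. A count of 0 in a single library allows an expected count of up to 3 (counting error only), and 0 in all 6 libraries narrows that limit. COX4I2 had at most 2 counts and COX6B2 at most 5. Their common forms were well expressed and changed little, with COX6A1 at 0.02 (SE 0.038, adjusted p = 0.654), COX7A2 at -0.06 (SE 0.040, adjusted p = 0.174), COX7B at -0.16 (SE 0.039, adjusted p = 0.000431) and COX6B1 at -0.08 (SE 0.038, adjusted p = 0.0482). The call of COX6B1 was lost under 8 of the alternatives tried.

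In complex V, 11 of 18 nuclear genes fell, 1 rose and 6 did not pass (median -0.23). Among all tested genes 35.6% were called lower and 34.0% higher. ATP5F1C, the gamma subunit of the central stalk, fell from 240 ± 9.40 to 76.4 ± 1.98 CPM (-1.65 on the log2 scale, SE 0.035). ATP5IF1, the factor that blocks ATP hydrolysis by the enzyme, fell from 119 ± 14.9 to 58.7 ± 3.05 CPM (-1.02, SE 0.111), and the membrane subunit ATP5ME changed by -0.52 (SE 0.083). ATP5MC3, which encodes the ring subunit that turns against ATP6, rose by 0.17 (SE 0.035).

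**Figure D4:**
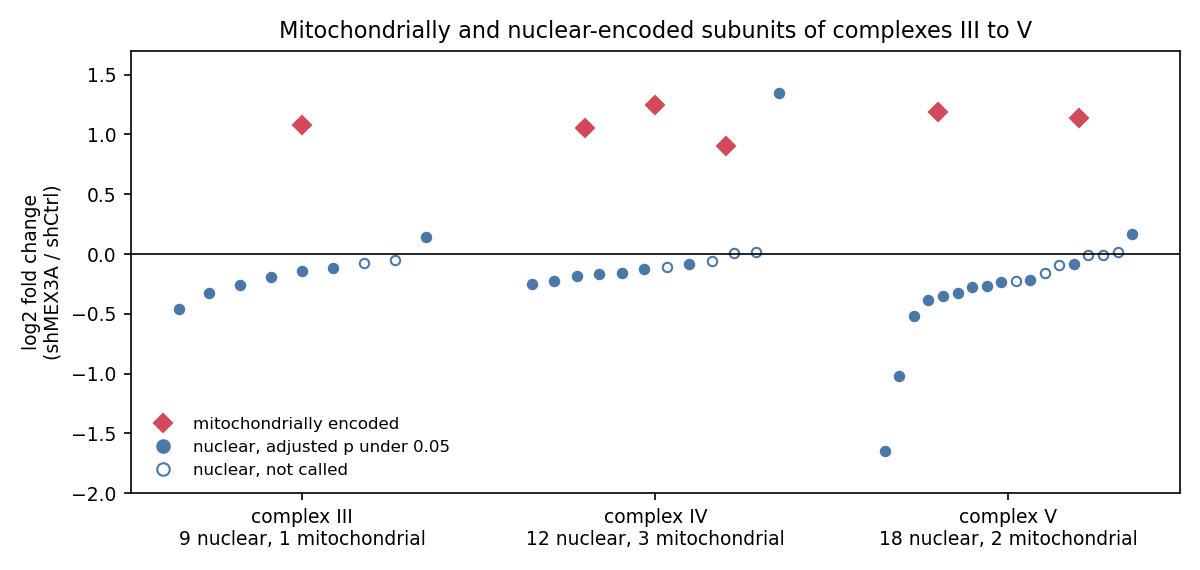
Log2 fold change (shMEX3A over shCtrl) of the mitochondrially encoded subunits (diamonds) and the tested nuclear-encoded subunits (circles, filled where called) of complexes III, IV and V. The diamonds lie between 0.91 and 1.24, and all nuclear genes but NDUFA4L2 lie below 0.2.

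In each complex the ratio of mitochondrial to nuclear counts was higher in shMEX3A, with no overlap between the arms. It follows from the rises of the members beside the smaller changes of most nuclear subunits, so it is not a separate result. No share over other sets of genes was taken, and 72.3% of single tested genes did not overlap in either direction. CYTB counts per count of the 9 nuclear complex III genes were 1.20, 1.21 and 1.17 in shCtrl and 2.56, 2.80 and 2.73 in shMEX3A (2.26 times). For COX1, COX2 and COX3 against 18 nuclear genes the values were 4.51, 4.85 and 4.63 against 9.69, 10.3 and 10.4 (2.17 times). For ATP6 and ATP8 against 18 nuclear genes they were 0.293, 0.303 and 0.278 against 0.737, 0.807 and 0.724 (2.59 times). These ratios are taken within a library and need no scaling factor. They compare counts, not molecules.

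Many of the calls among nuclear subunits moved with a correction for GC content and transcript length. With offsets for both, 39.1% of the 13849 genes with a value were called higher and 34.2% lower. In that fit 3 fell and 2 rose in complex III, 2 fell and 6 rose in complex IV, and 9 fell and 4 rose of the 16 complex V genes with a value. COX7C (0.07), COX5A (0.01), COX7B (0.10, adjusted p = 0.0163), COX7A2 (0.22, adjusted p = 1.36e-06) and NDUFA4 (0.18, adjusted p = 0.00198) then changed sign, and COX6A1 was called higher (0.30). UQCRFS1 stood at -0.20, UQCRC1 at 0.09 and ATP5MC3 at 0.29. The largest falls kept their call, with ATP5F1C at -1.38, ATP5IF1 at -0.87 and ATP5ME at -0.57, as did COX8A at -0.32. The members rose by 1.10 to 1.43 on the log2 scale under the same offsets.

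Among assembly factors the changes ran from -1.60 (COX7A2L) to 0.49 (HIGD2A) on the log2 scale. For complex III, 4 of 9 fell and 2 rose (median -0.11), beside 35.6% lower and 34.0% higher among all tested genes. With the GC and length offsets the counts were 3 and 3, with UQCC1 at 0.23 and TTC19 at 0.38. LYRM7 and BCS1L, which hold and place the Rieske protein, changed by -1.11 (SE 0.080) and -0.42 (SE 0.065), C16orf91 (UQCC4) by -0.72 (SE 0.081), TTC19 by 0.15 (SE 0.039) and UQCC1, which binds newly made cytochrome b, by 0.10 (SE 0.044, adjusted p = 0.0472). UQCC1 lost its call under 7 of the alternatives tried. For complex IV, 15 of 29 tested factors fell and 4 rose (median -0.12), or 10 and 7 of 28 with the offsets, where COX17 had 0.56. COX7A2L, which links complexes III and IV, fell from 163 ± 11.7 to 53.7 ± 1.97 CPM (-1.60, SE 0.045). COX20 and SCO2, which act on newly made COX2 as chaperone and copper carrier, changed by -0.72 (SE 0.046) and -0.60 (SE 0.063). HIGD2A (0.49, SE 0.042), COX14 (0.33, SE 0.073), which binds newly made COX1, and the copper chaperone COX17 (0.32, SE 0.083) rose. TACO1, the translational activator of COX1, had -0.04 (SE 0.046, adjusted p = 0.417). For complex V, 3 of 6 tested fell and 2 rose (median -0.08), with TMEM242 at -0.73 (SE 0.068), TMEM70 at -0.22 (SE 0.069), ATPAF2 at -0.13 (SE 0.056), DMAC2L at 0.35 (SE 0.074) and OXA1L, which inserts mitochondrially made proteins into the membrane, at 0.11 (SE 0.034). With the offsets 1 of 5 fell and 1 rose, TMEM70 had 0.04 and was not called, OXA1L had 0.20, and ATPAF2 lost its call under 6 of the alternatives tried.

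Among 22 tested factors that process or stabilise mitochondrial RNA, 10 fell and 7 rose (median -0.04), or 5 and 10 of 20 with the GC and length offsets. Among all tested genes 35.6% fell and 34.0% rose, or 34.2% and 39.1% with the offsets. The largest change was in HSD17B10, a dehydrogenase that is also a subunit of mitochondrial RNase P, which rose from 22.8 ± 1.12 to 87.5 ± 2.09 CPM (1.94 on the log2 scale, SE 0.043). Its RNase P partner TRMT10C changed by -0.49 (SE 0.067), or by -0.18 with the offsets. PTCD2 fell from 12.5 ± 0.790 to 5.89 ± 0.831 CPM (-1.09, SE 0.088) and the RNA granule protein GRSF1 from 135 ± 1.95 to 77.7 ± 2.69 CPM (-0.80, SE 0.035). FASTKD1 (0.54, SE 0.067) and FASTK (0.40, SE 0.046) rose. LRPPRC, which with SLIRP binds and protects most mitochondrial mRNAs, had -0.15 (SE 0.032, adjusted p = 5.96e-05) and SLIRP 0.01 (SE 0.062, adjusted p = 0.937), but -0.05 and 0.31 with the GC and length offsets. MTPAP, which adds the poly(A) tails, had -0.29 (SE 0.048), or -0.17 with the offsets. FASTKD5, needed to cut precursors that lack a flanking tRNA, such as that of COX1, had 0.04 (SE 0.054, adjusted p = 0.554), and 0.21 with the offsets. TBRG4 (FASTKD4) had 0.10 (SE 0.041, adjusted p = 0.0290), a call lost with the offsets (0.03) and without shCtrl replicate 1 (0.05), shMEX3A replicate 1 (0.10) or shMEX3A replicate 3 (0.08).

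Of 15 factors for transcription and upkeep of mitochondrial DNA, 5 fell and 5 rose (median -0.07), shares near the 35.6% and 34.0% of all tested genes. With the GC and length offsets 4 fell and 7 rose, with POLG at 0.27 and TFB1M at -0.29. The DNA polymerase subunits POLG (0.46, SE 0.036) and POLG2 (0.42, SE 0.10) and MTERF2 (0.35, SE 0.104) rose. The topoisomerase TOP1MT (-0.91, SE 0.047), the rRNA methyltransferase TFB1M (-0.57, SE 0.077) and the replicative helicase TWNK (-0.46, SE 0.038) fell.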

How the data were processed

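Libraries were made from total RNA with an mRNA kit, per the labels' protocols. The authors deposited raw read counts per gene for the 6 libraries as a single table. The submitters' processing notes name fastp 0.20.0, STAR, HTSeq 2.0.4, edgeR 4.0.16 and GRCh38. No annotation release, strand setting or rule for reads in overlapping genes could be taken from these sources.

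The main test was the robust quasi-likelihood test of edgeR 4.0.16 (R 4.3.3) with TMM scaling and the filterByExpr filter, shMEX3A against shCtrl, with Benjamini-Hochberg adjustment over 15679 genes and a threshold of 0.05. Called, rose and fell refer to this threshold. CPM are TMM-scaled. A second fit used the summed counts of the 13 mitochondrial mRNAs as library size. Shares and ratios were compared with exact two-sided permutation tests over libraries. The residual degrees of freedom were 4. The code was tested on simulated data.

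Alternatives were DESeq2 1.42.0 and limma 3.58.1 (voom), other scalings and low-count filters, offsets for GC content and transcript length (GENCODE 29, splines with 5 degrees of freedom, values for 88.3% of tested genes), a replicate block, and each library left out. The genes named are the mitochondrial mRNAs and rRNAs, up to 3 called genes with the largest rise and 3 with the largest fall in each nuclear list, tissue isoform pairs, factors known for these mRNAs, and the 5 genes closest in profile. NAPSA and the other markers were singled out for mention after their values were seen. The members and lists were chosen with earlier results of these data known. Nuclear pseudogene copies of the members were not analysed here.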

Additional observations from a re-analysis of the deposited data

How the results depend on the processing

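All 6 members kept their direction and call under all 15 alternatives to the main test, with log2 fold changes from 0.86 to 1.43. The replicate numbers did not pair the libraries, since same-numbered libraries had correlations of -0.031, 0.077 and -0.077 between their deviations from the arm means, and a library's best match bore its own number in 2 of 6 cases. With a replicate block 10751 genes were called, 10699 of them among the 10925, and all 6 members were called. Per kilobase, the differences in pool share were 1.16 percentage points for COX2 (0.751 unscaled), 0.778 for ATP6 (0.496) and 0.173 for ATP8 (0.0324). The share of ATP8 differed by -0.0027 without shCtrl replicate 1 and by -0.0141 without shMEX3A replicate 1, within a range of -0.0141 to 0.0795 over the libraries left out, and against the pool its log2 values were -0.0057 and -0.029. Values near 0 changed sign. Over the libraries left out, the upper ends were 0.056 (COX4I1), 0.081 (SLIRP) and 0.072 (COX6A1), all without shCtrl replicate 1, and with GC and length offsets SLIRP had 0.31 and COX6A1 0.30. COX4I1 had -0.0030 without the low-count filter, and -0.011, -0.020 and -0.0083 without shCtrl replicate 2, shCtrl replicate 3 and shMEX3A replicate 2. In the same order SLIRP had -0.0066, -0.056, -0.0058 and -0.011. COX6A1 had -0.0042, -0.013 and -0.0012 without shCtrl replicate 2, shCtrl replicate 3 and shMEX3A replicate 3. With GC and length offsets the values were 0.067 for COX7C, 0.013 for COX5A, 0.039 for TMEM70, 0.22 for COX7A2, 0.10 for COX7B, 0.18 for NDUFA4 and 0.0055 for TACO1. The median log2 fold change was -0.01 over the 15679 genes of the main fit and 0.03 over the 13849 genes fitted with offsets. The median of those 13849 genes without offsets was not taken. The cause of the changes with offsets was not tested. Precision is limited by 3 libraries per arm more than by depth, also for ND6, whose 792 to 2695 counts went with a coefficient of variation of 35.8% in shCtrl.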
